A study of Mus musculus with 2 samples.

Results

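The 33 macrophage and monocyte genes described here were followed in cultured mouse mast cells after knockdown of the transcription factor GATA1. They were found by symbol among the 34797 gene names of the array, and all 33 were present, on 40 probes and 59 spots. Total RNA was profiled on 2 one-colour Agilent arrays. The first carried RNA of bone marrow-derived mast cells of C57BL/6 mice given GATA1 siRNA (200 pmol), and the second carried RNA of the same kind of cells given a control siRNA (200 pmol). Both cultures had been grown for 2 weeks in 10 ng/mL interleukin 3 and for 2 more weeks in interleukin 3 with 10 ng/mL stem cell factor. Each array holds a pool of replicate samples from 2 animals, whose age is not given in the sources used here, so there is 1 array per siRNA, no difference has a replicate check, and no p-value is given.

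Macrophages and monocytes are phagocytes that grow under the cytokine CSF1, carry scavenger and lectin receptors at their surface, and digest what they take up in lysosomes. Mast cells arise from the same marrow progenitors and share part of this equipment, such as the adaptor Tyrobp, so a signal from such a gene does not by itself mark a macrophage. GATA1 is a zinc finger factor best known from the precursors of red cells and platelets. It is also made in mast cells, and is known to oppose PU.1, the factor that drives myeloid genes. The comparison asks which transcripts differ in mast cells that received GATA1 siRNA.

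The targeted gene gave a signal of 3930 on the GATA1 siRNA array, against 16415 on the control siRNA array, a log2 difference of -2.23. Values called differences below are log2 of the scaled signal on the GATA1 siRNA array minus log2 of the scaled signal on the control siRNA array, where scaling divides each array by its 75th percentile (340.0 scanner units on the GATA1 siRNA array and 303.2 on the control siRNA array). Signals are in scanner units before that scaling. A probe was measured where the scanner software called it well above background on both arrays. Of the spots with gene probes, 55.7% were well above background on the GATA1 siRNA array and 53.3% on the control siRNA array, and 0 were saturated. All 14 mast cell markers looked at were measured, with differences from -1.11 to 0.04. Above 0 were 4 of 14 (28.6%, against 52.7% of all measured genes). The stem cell factor receptor Kit stood at 0.035, the IgE receptor chains Ms4a2 and Fcer1a at 0.01 and -0.17, and the proteases Cpa3 and Cma1 at 0.04 and -0.12. The tryptase Tpsg1, named after its value was seen, was the lowest and the 1 marker of 14 at least 2-fold lower (against 0.608% of all measured genes).

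Of the 33 genes, 26 were measured on both arrays. Most of them were somewhat higher with GATA1 siRNA: the median difference was 0.29, against 0.01 over all 20410 measured genes, and 22 of the 26 were above 0 (84.6%, against 52.7% of all measured genes). The lysosomal glycoprotein Cd68 and the membrane protein Ms4a7 passed the 2-fold rule of size, with differences of 1.07 and 1.09. That is 2 of 26 (7.69%), against 0.294% of all measured genes at least 2-fold higher, and 0 of 26 were at least 2-fold lower, against 0.608% of all. At 1.5-fold, 5 of 26 were higher (19.2%, against 1.83%) and 0 were lower (against 2.76%). At 3-fold, 0 were higher (against 0.0588%) and 0 were lower (against 0.171%). With bulk RNA, more cells of a type and more RNA per cell cannot be told apart.

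**Figure D1:**
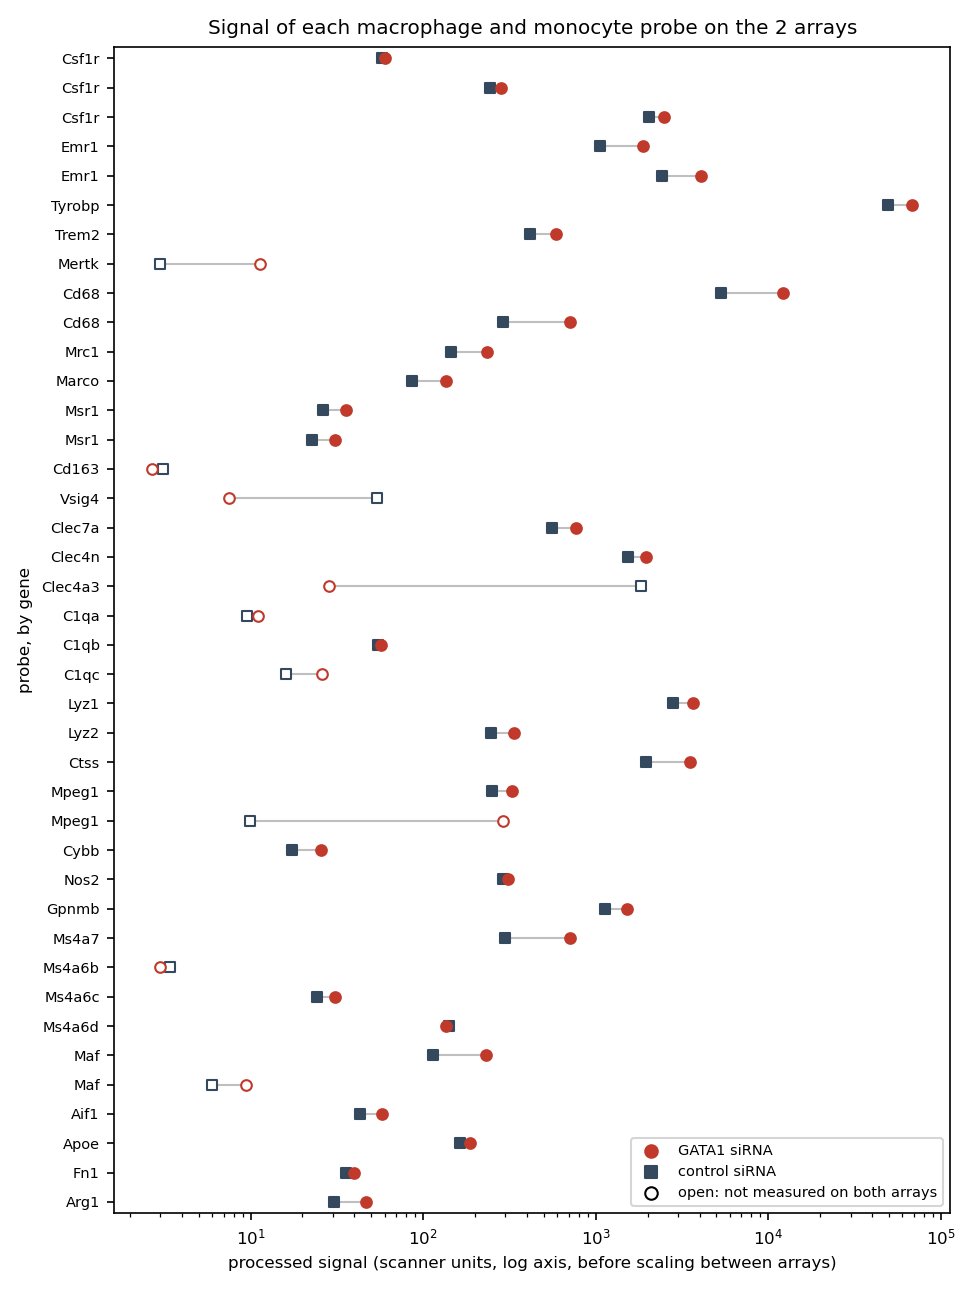
Processed signal of each probe of the 33 genes (horizontal, scanner units on a log axis, before scaling between arrays) on the GATA1 siRNA array (circles) and the control siRNA array (squares). Filled symbols are probes measured on both arrays, and the 3 widest gaps belong to open symbols, the probes of Clec4a3, Mpeg1 and Vsig4 with 1 doubtful spot each; signals of different probes are not comparable as levels of their genes.

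The probes below are shown because the highest differences and the doubtful values rest on them. Each line gives the first 30 of 60 bases, 5′ to 3′, from the array annotation (mouse build mm9), with no capitals because no part is singled out.
Cd68 probe A_55_P2067583, chr11:69479009-69479038, minus strand: ccgaatcctatacccaattcagggtggaag
Cd68 probe A_55_P1961943, chr11:69477805-69477834, minus strand: gcctcatctcttcaccatgccactgactca
Ms4a7 probe A_55_P1958165, chr19:11395933-11395962, minus strand: agcagagtacagctagacttgcctgaaatc
Maf probe A_51_P405167, chr8:118227766-118227795, minus strand: tgggtatgtgtagttcttgctataccatgg
Ctss probe A_55_P2024888, chr3:95360245-95360274, plus strand: cctgttgtctagtgttttctaataaccatt
Clec4a3 probe A_51_P147274, chr6:122919637-122919666, plus strand: gccaatggttatacatatgataatactggc
Vsig4 probe A_55_P2012899, chrX:93442628-93442657, minus strand: ggattactcctctttctctagggccagatg
Mpeg1 probe A_52_P180373, chr19:12537697-12537726, plus strand: taccttggccatctatggtactcggaagta
Mpeg1 probe A_51_P390538, chr19:12539387-12539416, plus strand: aagagggctaattgcacaacctctccatcg
Promoter windows are shown for 4 of the 6 highest genes, the 4 that have an entry in the RefSeq table (GRCm38.p6). Each is the 250 bases before a transcription start, and capitals mark matches of 3 searched motifs on either strand.
Mrc1, chr2:14229164-14229413, plus strand: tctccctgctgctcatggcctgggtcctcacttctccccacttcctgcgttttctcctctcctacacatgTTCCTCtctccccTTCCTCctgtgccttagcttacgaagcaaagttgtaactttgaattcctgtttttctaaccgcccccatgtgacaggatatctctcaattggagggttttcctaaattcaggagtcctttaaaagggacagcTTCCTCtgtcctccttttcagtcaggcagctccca
Ctss, chr3:95526536-95526785, plus strand: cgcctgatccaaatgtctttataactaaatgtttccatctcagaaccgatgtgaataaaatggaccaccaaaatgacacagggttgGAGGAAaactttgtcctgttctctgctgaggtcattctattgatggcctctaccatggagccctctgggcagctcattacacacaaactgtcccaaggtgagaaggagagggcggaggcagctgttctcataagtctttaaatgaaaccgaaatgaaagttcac
Cd68, chr11:69666171-69666420, minus strand: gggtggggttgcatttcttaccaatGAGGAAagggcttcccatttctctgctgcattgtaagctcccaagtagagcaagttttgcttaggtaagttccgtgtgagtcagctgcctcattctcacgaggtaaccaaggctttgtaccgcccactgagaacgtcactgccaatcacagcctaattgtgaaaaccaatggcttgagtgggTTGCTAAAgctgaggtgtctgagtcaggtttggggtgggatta
Ms4a7, first start, chr19:11336147-11336396, minus strand: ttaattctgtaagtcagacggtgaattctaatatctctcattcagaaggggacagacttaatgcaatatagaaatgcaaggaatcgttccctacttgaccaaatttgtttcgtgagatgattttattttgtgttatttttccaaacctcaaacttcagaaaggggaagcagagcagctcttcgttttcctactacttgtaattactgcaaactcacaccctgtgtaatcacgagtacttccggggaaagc
Ms4a7, second start, chr19:11334696-11334945, minus strand: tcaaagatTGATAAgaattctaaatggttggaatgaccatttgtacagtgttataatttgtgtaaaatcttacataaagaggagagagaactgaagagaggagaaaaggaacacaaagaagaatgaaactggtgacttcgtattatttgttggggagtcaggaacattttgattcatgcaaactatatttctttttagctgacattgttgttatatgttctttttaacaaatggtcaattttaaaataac
The motifs were GATA (spelled AGATAA or AGATAG, and also TGATAA or TGATAG), the PU.1 core GAGGAA and the C/EBP motif TTGCNNAA. In the windows printed, capitals are GAGGAA on either strand in Mrc1 (3 matches), Ctss (1) and Cd68 (1), TTGCNNAA in Cd68 (1) and a GATA match at the second start of Ms4a7. Over the 22 of the 33 genes that have an entry, 14 of 27 windows held GAGGAA, against 23.3% of all 32851 windows. A GATA match stood in 9 of the 27, against 26.5% of all windows, and TTGCNNAA in 2 of the 27, against 9.6%. Windows of 1 gene can overlap, as those of Clec7a do, so a match can count more than once. By gene, 12 of the 22 had GAGGAA, 9 a GATA match and 2 TTGCNNAA, while the shares over all windows are not by gene. Such matches describe letters and are not shown to be binding sites, and a window without a match says only that these letters are not in it.

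The receptors through which macrophages are made and signal differed by different amounts. Csf1r, the receptor for CSF1, gave 2491, 281 and 60.3 at its 3 probes with GATA1 siRNA, against 2048, 243 and 57.9 with control siRNA. After scaling its probes stood at 0.12, 0.05 and -0.105 and the gene at 0.02, so its 3 probes lay on both sides of 0. Emr1 (now named Adgre1), an adhesion receptor widely used as a macrophage antigen, gave 4095 and 1884 at its 2 probes with GATA1 siRNA, against 2415 and 1061 with control siRNA. The probes gave 0.60 and 0.66, and the gene, at 0.63, was 1.55-fold higher.

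Tyrobp, the signalling adaptor of many activating myeloid receptors, gave 68122 with GATA1 siRNA and 49193 with control siRNA, a difference of 0.30. Trem2, a lipid-sensing receptor that signals through Tyrobp, gave 593 with GATA1 siRNA and 415 with control siRNA, a difference of 0.35. Both were higher by more than the scanner software's own error for a difference, 0.204 and 0.205. That error comes from the software's model of 1 spot and covers neither cells nor animals. Mertk, a kinase receptor for the uptake of dying cells, was not well above background on either array.

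Scavenger receptors take up modified lipoproteins, microbes and debris, and all 4 that were measured were above 0 (against 52.7% of all measured genes). Cd68 gave 12133 and 712 at its 2 probes with GATA1 siRNA, against 5340 and 291 with control siRNA. The 2 probes, which lie in different parts of the gene (chr11:69477775-69477834 and chr11:69478979-69479038, minus strand, mm9), gave 1.02 and 1.13, so each passed 2-fold on its own. Mrc1, the mannose receptor, gave 234 with GATA1 siRNA and 146 with control siRNA, a difference of 0.52.

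Marco, a class A scavenger receptor, gave 136 with GATA1 siRNA and 86.0 with control siRNA, a difference of 0.49. Its relative Msr1 was dim, with 35.9 and 31.0 at its 2 probes on the GATA1 siRNA array and 26.2 and 22.6 on the control siRNA array, and both probes gave 0.29. The haemoglobin scavenger receptor Cd163, a marker of tissue macrophages, was not well above background on either array.

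Vsig4, a complement receptor of tissue macrophages, passed background at its single probe with control siRNA only, with signals of 7.5 with GATA1 siRNA and 54.3 with control siRNA. As a bound it was at least 4.58-fold lower. Among the 18 nearest spots, 3 also differed 4-fold or more, all in the same direction, and the spot's pixels were uneven (coefficient of variation 0.43 with GATA1 siRNA and 0.71 with control siRNA). The part of the slide's surface in the Vsig4 value was not tested.

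C-type lectins recognise fungal and other glycans. Clec7a, a beta-glucan receptor, gave 765 with GATA1 siRNA and 557 with control siRNA, a difference of 0.29. Clec4n, which recognises mannans, gave 1965 with GATA1 siRNA and 1546 with control siRNA, a difference of 0.18. For Clec4a3 the spot gave 28.6 with GATA1 siRNA and 1842 with control siRNA, but the software marked the control siRNA spot as an outlier. Its pixel coefficient of variation there was 2.12, against 0.50 on the GATA1 siRNA array, while 0 of its 18 neighbours differed 4-fold. Clec4a3 therefore has no value here.

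**Figure D2:**
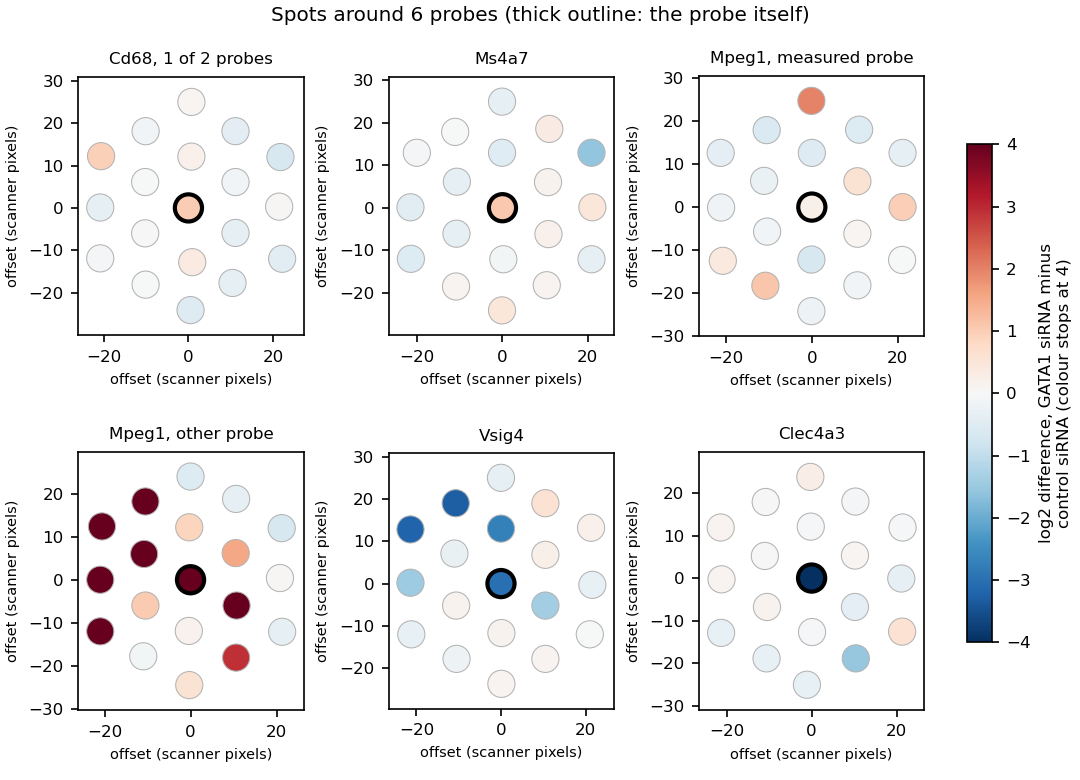
Log2 difference, GATA1 siRNA minus control siRNA (colour), of the spots around 6 probes, with offsets in scanner pixels and a thick outline on the probe itself. Of the 18 neighbours, 7 differ 4-fold the same way around the second Mpeg1 probe and 3 around the Vsig4 probe. The median of the neighbouring gene spots is 0.875 around that Mpeg1 probe and -0.19 around Vsig4. The Clec4a3 spot differs alone, and around 1 Cd68 probe, Ms4a7 and the measured Mpeg1 probe 0 neighbours counted as 4-fold different.

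The 3 chains of C1q, the first component of the classical complement pathway, are made together in tissue macrophages. C1qb gave 57.3 with GATA1 siRNA and 54.8 with control siRNA, a difference of -0.10, inside the software's error of 0.24. C1qc was printed 10 times, with spots of 20.8 to 31.9 on the GATA1 siRNA array and of 10.4 to 22.2 on the control siRNA array. All 10 spots were well above background with GATA1 siRNA and 5 of 10 with control siRNA.

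Before scaling, the 10 C1qc spots averaged 26.1 ± 3.6 with GATA1 siRNA and 16.5 ± 3.9 with control siRNA (SD over spots of 1 array each). The 2 ranges overlapped, and more so after scaling. The lowest GATA1 siRNA spot then stood at -4.03 (log2 scaled signal) and the highest control siRNA spot at -3.77. Since only 5 of the 10 control siRNA spots passed background, and more than 5 were required, the gene has no measured difference. Its spots differed by 0.52 ± 0.43 on average (SD over 10 spots, from 0.03 to 1.315). The single probe of C1qa was not well above background on either array.

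Lysosomal and killing proteins were mostly above 0, in 6 of 7 measured genes (85.7%, against 52.7% of all measured genes). Ctss, a cysteine protease of antigen processing, gave 3505 with GATA1 siRNA and 1959 with control siRNA, a difference of 0.67. The lysozymes Lyz1 and Lyz2, which cleave bacterial walls, are close copies. Lyz1 gave 3660 with GATA1 siRNA and 2807 with control siRNA, a difference of 0.22, and Lyz2 gave 336 with GATA1 siRNA and 246 with control siRNA, a difference of 0.28. Their probes share at most 21 of 60 bases in an ungapped alignment and no run longer than 6, so the probes themselves are not copies of each other. Whether either probe also binds the transcript of the other gene was not tested.

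Gpnmb, a glycoprotein of lysosomes and melanosomes, gave 1522 with GATA1 siRNA and 1131 with control siRNA, a difference of 0.26. Cybb, the catalytic chain of the phagocyte oxidase, was dim at 25.7 with GATA1 siRNA and 17.3 with control siRNA, a difference of 0.41 with a software error of 0.37. Nos2, the inducible nitric oxide synthase, was printed in 2 spots of 308 and 314 with GATA1 siRNA and of 283.5 and 295 with control siRNA. It stood at -0.06, and both of its spots were below 0 after scaling.

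Mpeg1, a pore-forming protein of phagosomes, has 2 probes that disagree. The first gave 330 with GATA1 siRNA and 252 with control siRNA, a difference of 0.22, and 0 of its neighbours differed 4-fold. The second gave 289 with GATA1 siRNA and 9.9 with control siRNA, and would be at least 17.0-fold higher, but 7 of its 18 neighbours also differed 4-fold, all 7 brighter on the GATA1 siRNA array. Of the 7, 5 entered the count of doubtful places, and the others were 1 outlier spot and 1 control spot. The second probe did not pass background with control siRNA, and the value of Mpeg1 rests on the first.

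The MS4A proteins are membrane proteins with several spans whose genes lie together on chromosome 19. Ms4a7 gave 712 with GATA1 siRNA and 298 with control siRNA, a difference of 1.09 (2.13-fold) at a single probe (chr19:11395903-11395962, minus strand, mm9). Its spot was even on both arrays, with pixel coefficients of variation of 0.19 with GATA1 siRNA and 0.18 with control siRNA. With another background correction (normexp) the difference was 0.95, below 2-fold.

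The other members of the family were much closer to 0. Ms4a6d gave 135 with GATA1 siRNA and 141 with control siRNA, the lowest difference of the 26 at -0.23. Ms4a6c was dim at 31.0 with GATA1 siRNA and 24.2 with control siRNA, a difference of 0.19 with an error of 0.305. Ms4a6b passed background on neither array. No pair of the compared MS4A probes shared more than 21 of 60 bases, and binding to each other's transcripts was not tested.

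Maf, a transcription factor of macrophages and T cells, gave 232 with GATA1 siRNA and 115 with control siRNA at its measured probe. The difference was 0.85 (1.81-fold), and 0.59 with normexp. Its second probe passed background on neither array (9.4 with GATA1 siRNA and 6.0 with control siRNA). Arg1, the arginase of alternatively activated macrophages, was dim at 46.7 with GATA1 siRNA and 30.5 with control siRNA, a difference of 0.45. Aif1, an actin-binding protein of activated macrophages, gave 58.1 with GATA1 siRNA and 43.0 with control siRNA, a difference of 0.27.

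Apoe, the lipid carrier secreted by macrophages, was printed 10 times, which shows the spread between spots for this 1 probe. Its spots ran from 173.5 to 201.7 on the GATA1 siRNA array and from 144.2 to 178.2 on the control siRNA array. After scaling the mean difference was 0.02 ± 0.12 (SD over 10 spots, from -0.11 to 0.20), and it was -0.002 with normexp. The matrix protein Fn1 gave 39.9 with GATA1 siRNA and 35.9 with control siRNA, a difference of -0.01 that reached 0.07 under other settings. Neither gene has a settled direction.

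**Figure D3:**
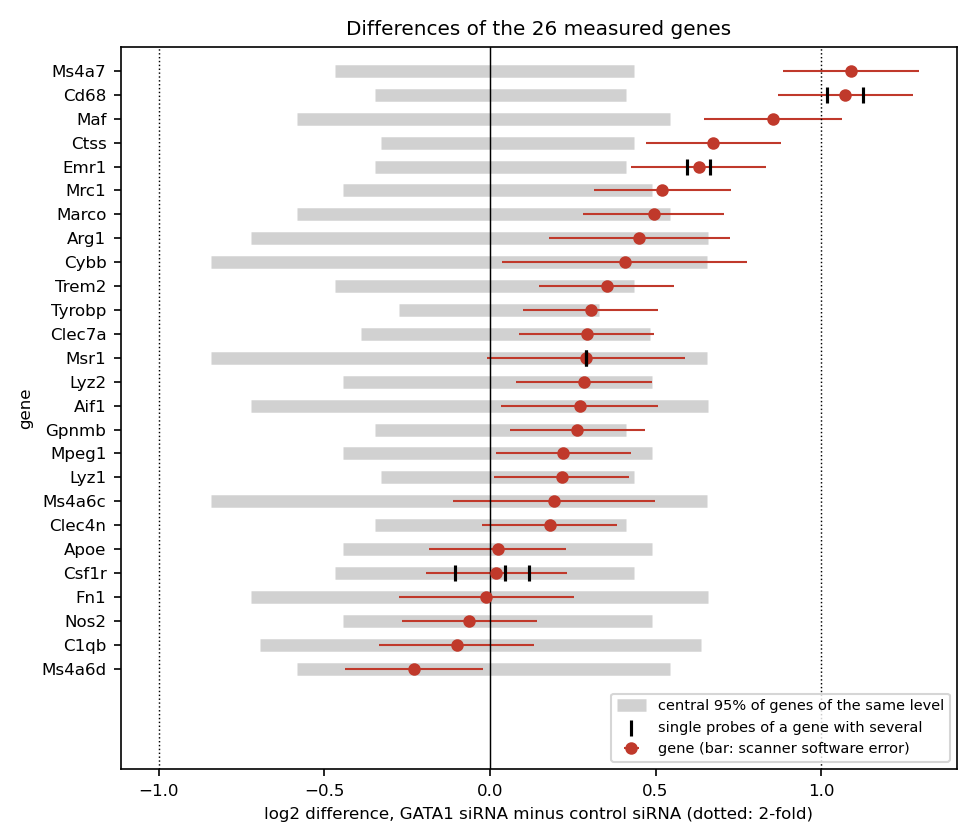
Log2 difference, GATA1 siRNA minus control siRNA, of the 26 measured genes (points, with bars for the scanner software's error) and of single probes where a gene has several (ticks). Grey bars span the central 95% of all measured genes in the same of 10 bins by mean level, and 6 genes from Ms4a7 (1.09) to Mrc1 (0.52) lie beyond their bar.

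Spread between the arrays grows as signals become dim, so each gene was also set beside all genes of similar mean level, in 10 bins of equal size. Above the central 95% of those genes lay 6 of 26: Ms4a7, Cd68, Maf, Ctss, Emr1 and Mrc1. Over all genes 2.5% lie above that range by construction. Below it lay 0 of 26. Mrc1 was no longer above it with a minimum signal of 50, with the brightest probe standing for a gene, or with dim probes counted. Counting dim probes also took Maf inside the range, put Mpeg1 above it through its doubtful second probe, and put Vsig4 below it. Of the 26 differences, 18 exceeded the software's error and 7 exceeded it by a factor of 2. At none of the measured probes were 2 or more neighbours 4-fold different.

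**Figure D4:**
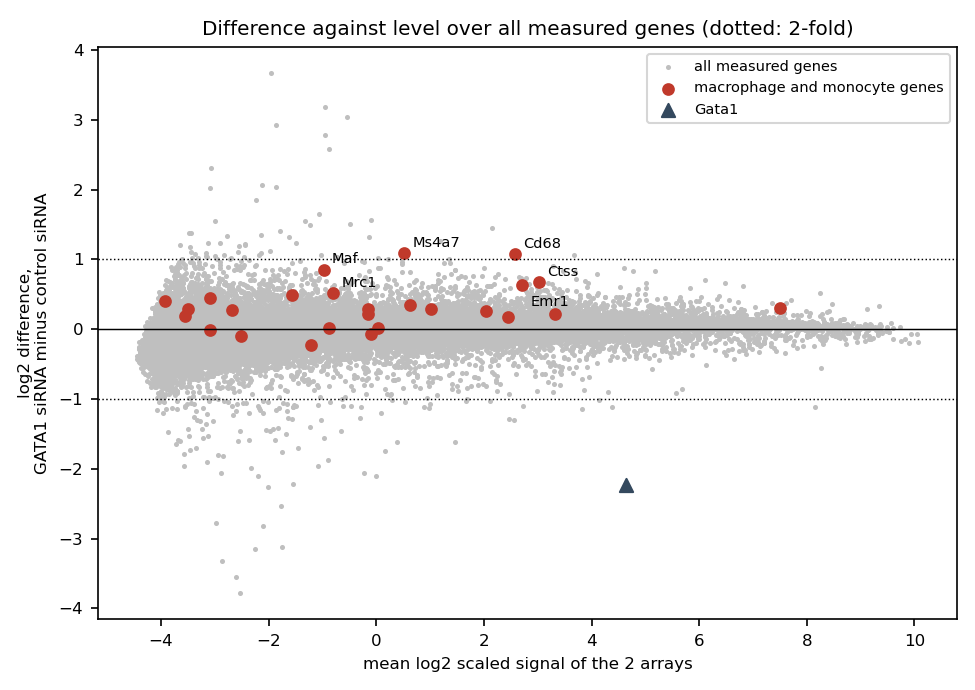
Log2 difference, GATA1 siRNA minus control siRNA, against the mean log2 scaled signal for all 20410 measured genes (grey), the 26 measured macrophage and monocyte genes (red) and Gata1 (triangle, -2.23). Dotted lines mark 2-fold, which Cd68 and Ms4a7 pass upward.

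A second list of 95 other macrophage and monocyte genes was described in the same way, and 83 of its genes were measured. Their median difference was 0.20, and 61 of 83 were above 0 (73.5%, against 52.7% of all measured genes). The dim lipid exporter Abca1 was at least 2-fold higher (39.5 with GATA1 siRNA and 17.5 with control siRNA, a difference of 1.01). At least 2-fold lower was the protease Ctsk (237 with GATA1 siRNA and 488 with control siRNA, a difference of -1.21), whose probe lies at a place where neighbouring spots also differ.

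Monocyte receptors in this list differed in opposite directions. The chemokine receptor Ccr2, which brings monocytes out of the marrow, gave 2278 with GATA1 siRNA and 1233 with control siRNA, a difference of 0.72. Cx3cr1, the fractalkine receptor of patrolling monocytes, gave 291 with GATA1 siRNA and 499 with control siRNA, and its 2 probes agreed at -0.95 and -0.94. Cd300e was dim at 26.7 with GATA1 siRNA and 39.3 with control siRNA, a difference of -0.72. Ly6c1 stood at 0.41 over 2 probes, the lipopolysaccharide co-receptor Cd14 at 0.21, and the integrin chain Itgam at 0.002 over 3 probes.

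Among ligands of the CSF1 receptor, Csf1 stood at 0.21 over 4 probes that ran from -0.27 to 0.43, and the dim Il34 at 0.68 (29.6 with GATA1 siRNA and 16.4 with control siRNA). The Fc receptor Fcgr3 stood at 0.20 and the dim Fcgr1 at -0.39. Of the transcription factors, Sfpi1 (now Spi1, which encodes PU.1) gave 187 with GATA1 siRNA and 147 with control siRNA, a difference of 0.19, and the dim Irf8 stood at 0.42. The 10 measured transcription factors of the list had a median of -0.06. The 15 measured lysosome genes of the list had a median of 0.30, with 14 above 0 (93.3%, against 52.7% of all measured genes). The haem oxygenase Hmox1 stood at 0.62 over 2 probes, and the lectin Clec10a at -0.43.

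Markers of other cells also differed between the arrays, and their part in the values above was not tested. Over all measured genes 52.7% were above 0, the share to set beside the counts above 0 in this and the next paragraph. Neutrophil markers had a median of 0.53, with 17 of 19 measured genes above 0. At least 1.5-fold higher were 8 of the 19 (42.1%), against 1.83% of all measured genes and the 19.2% of the macrophage and monocyte genes given above. The summed scaled level of the neutrophil markers was 464.3 with GATA1 siRNA and 477.0 with control siRNA. Mmp9 and Retnlg were not well above background. Dendritic cell markers had a median of 0.33, with 10 of 12 above 0 and sums of 21.2 with GATA1 siRNA and 17.4 with control siRNA, and Xcr1, Clec9a, Cd209a and Ccl22 were not above background. Basophil markers had a median of 0.24 with 5 of 7 above 0 (sums of 234 with GATA1 siRNA and 200 with control siRNA).

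Mast cell markers had a median of -0.10, with 2 of 14 at least 1.5-fold lower (against 2.76% of all measured genes). Their sums were 3059 with GATA1 siRNA and 3524 with control siRNA. Eosinophil markers had a median of -0.33 with 3 of 10 above 0 (sums of 26.6 with GATA1 siRNA and 35.2 with control siRNA). Lymphocyte markers had a median of -0.12 with 1 of 6 above 0 (sums of 5.81 with GATA1 siRNA and 6.00 with control siRNA), and 6 of 12, including Cd3d and Ms4a1, were not above background. Stromal markers had a median of -0.02 with 2 of 5 above 0 (sums of 0.62 with GATA1 siRNA and 0.67 with control siRNA), and 7 of 12, including Col1a1 and Pdgfra, were not above background.

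**Figure D5:**
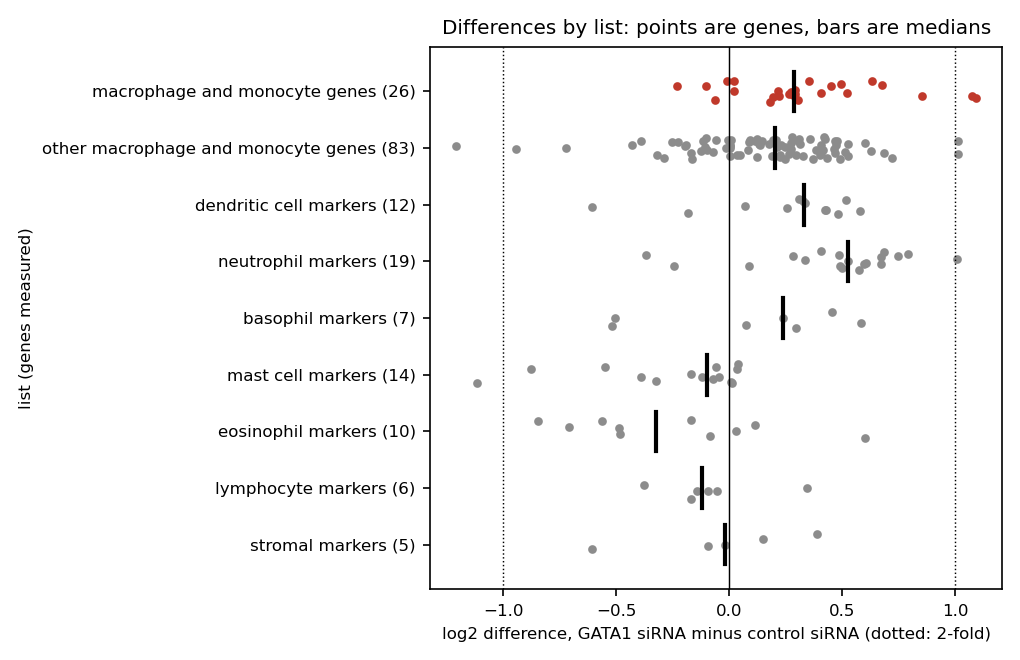
Log2 difference, GATA1 siRNA minus control siRNA, by list, with a point for each measured gene and a bar at the median. The 26 macrophage and monocyte genes (red) have a median of 0.29, below the neutrophil (0.53) and dendritic cell (0.33) markers and above the basophil markers (0.24), while the mast cell (-0.10) and eosinophil (-0.33) markers have medians below 0.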

How the data were processed

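Total RNA (100 ng, labelled with Cy3) of mast cells was hybridised to 1 array per siRNA, and groups were taken from the transfection label. Per the file headers, the processed intensity of each spot came from Feature Extraction version 10.7.3.1, which subtracted background, detrended within the array and set no scale between arrays. A normalized intensity table of the authors, whose making is not given in the sources used here, served as an alternative.

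Control spots and outlier spots on either array (133 with GATA1 siRNA, 117 with control siRNA) were left out. Repeated spots were averaged as log2 values, leaving 55659 probes, and each array was divided by its 75th percentile. A probe printed several times counted as well above background where most of its spots were. A gene is the mean of its measured probes, under the name the array gives. Of the 40 probes of the 33 genes, 36 carry a RefSeq accession of the same gene and 4 had no match there. A gene above background on 1 array has a bound: the bright array against the higher of the dim signal and the lowest signal well above background (13.3 units with GATA1 siRNA, 15.2 with control siRNA). None is given for C1qc, whose dim signal lay above that floor. A place on the slide was counted as doubtful where at least 2 of the 18 nearest spots differed 4-fold or more (outlier spots, control spots and spots dim on both arrays not counted), which held for 2.31% of gene spots.

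No test across arrays is possible with 1 array per group, so rules of size replaced it, and precision is limited by having 2 arrays. The members and lists were chosen with earlier results of these data known. The text names every member, Gata1, mast cell markers and, of the second list, 13 genes with its 5 highest and 5 lowest, of which some are not reported here. Ly6c2 is not on the array under that name. Calculations used Python 3.11.15, R 4.3.3 and limma 3.58.1, and the main one was tested on simulated data. The simulation changed only genes that were not dim, and by more than any measured macrophage and monocyte gene differed here. It does not show how differences as small as those above, or dim genes, are recovered.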

Additional observations from a re-analysis of the deposited data

How the results depend on the processing

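No paired analysis was possible because each siRNA has 1 array. The median of the measured macrophage and monocyte genes lay between 0.23 (normexp background with offset 50) and 0.35 (the authors' table), against 0.29. In the authors' table the median over all genes was also higher, at 0.07. The members lay above the median of all genes by 0.27 there and in the main setting. That gap ran from 0.23 (normexp) to 0.37 (dim probes counted). Of the 26 genes, 24 kept their sign in every setting that gave a value, the exceptions being Apoe and Fn1. Of those at least 2-fold higher, 2 in the main setting, normexp left 1, counting dim probes gave 4, the 1.5-fold rule 5 and the 3-fold rule 0. Of those at least 2-fold lower, 0 in the main setting, counting dim probes gave 1 (Vsig4) and keeping outlier spots gave 1 (Clec4a3, at -6.17). Over all genes, 60 higher and 124 lower (32.6% higher) became 17 and 32 with normexp, 728 and 1128 with dim probes, 24 and 61 with signals of at least 50, 374 and 564 at 1.5-fold, and 12 and 35 at 3-fold. Without doubtful places 37 were higher. Loess gave 79 and 108 (42.2% higher) and the authors' values 77 and 104 (42.5%). Normexp, which adds an offset and so shrinks dim differences, gave 0.01 for Cybb, Msr1 and Ms4a6c, 0.03 for Aif1 and 0.09 for Arg1. Counting dim probes gave Mpeg1 2.46. Counting a repeated probe if any spot passed background, chosen after seeing the data, gave C1qc 0.52.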
